A study of Brachypodium distachyon with 8 samples.

Results

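Day length reaches the flowering programme of grasses through light receptors, a circadian oscillator and transcription regulators of the CONSTANS type, and 7 genes of this route were followed here in leaves of Brachypodium distachyon. They are the phytochrome genes PHYB and PHYC, the clock genes ELF3 and TOC1, the photoperiod regulator PPD1 and the CONSTANS homologs CO1 and CO2. They were chosen by identifier and not by a rule on measured values, although earlier results of these data were known at that time. Their names were taken as given with the identifiers, and all 7 of 27830 identifiers were found. All 7 had a mean level of at least 1 FPKM, as did 14922 identifiers, which were tested. FPKM counts sequenced fragments per kilobase of a gene's transcript, relative to the library's mapped total, so that levels of different genes can be set beside each other.

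Phytochromes are red and far-red light receptors, and in wheat PHYB and PHYC are required for the flowering response to long days. ELF3, a component of the evening complex of the clock, and TOC1, a pseudo-response regulator, act around dusk in Arabidopsis, and ELF3 restrains PPD1 in temperate cereals. PPD1 is itself a pseudo-response regulator that promotes heading under long days in wheat and barley, and the CONSTANS genes encode zinc-finger proteins with a CCT domain whose levels follow the time of day. Transcript levels of most of these genes therefore depend on the hour of harvest.

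The data were 8 mRNA-seq libraries from leaves of the inbred line Bd21-3, with 2 biological replicates in each of 4 groups. The label MTL-OX, a name the study's methods do not use, is read here as the study's transgenic plants. These overexpress LNJ, a microProtein related to the jasmonate signalling repressor NINJA. By its wording the label WT would be the untransformed line. The LNJ levels given below go against this reading of both labels, so the labels serve here only as names of groups. Each genotype was sprayed repeatedly with methyl jasmonate (MeJA), a volatile form of the hormone jasmonate, in a Tween solution, or with the Tween solution alone (mock), when the plants were several weeks old. The groups were MTL-OX with MeJA (libraries 7 and 8), MTL-OX with mock (libraries 5 and 6), WT with MeJA (libraries 3 and 4) and WT with mock (libraries 1 and 2). All groups shared the growth conditions of a long-day chamber. The methods describe harvest shortly after the last spray but give no hour of day, give 2 spraying regimes without saying which one these libraries came from, and name independent transgenic lines without saying which one was sequenced. The replicates are pools of leaves, so fewer cells of a type and less RNA per cell cannot be told apart.

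One check of the labels failed and bears on every genotype comparison. LNJ (BRADI1G69970), the gene that the transgene overexpresses, had 0 and 0.834 FPKM in the libraries labelled MTL-OX with MeJA. The second value was 1 fragment. LNJ was listed at 0 in both libraries labelled MTL-OX with mock. It had 596.9 and 580.8 FPKM in those labelled WT with MeJA and 689.2 and 761.8 FPKM in those labelled WT with mock. The names of the deposited tables give the other genotype for all 8 libraries, and the LNJ level followed the table names. Both thus went against the labels, which are kept below as names of the groups. Every direction between genotypes, and the genotype to which a MeJA response belongs, turns round if the table names are right.

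The confidence bounds in the tables corresponded to 13452995 to 15821699 fragments per library, and 19514 to 19959 genes were above 0. Replicates of a group correlated across all tested genes with Pearson's r between 0.949 and 0.983 on log2(FPKM + 1), lowest in the libraries labelled MTL-OX with mock. In that group the deposited bounds of the 2 replicates lay apart for 38.0% of tested genes, the highest share of the 4 groups. Factors that align the median gene of the libraries ranged from 0.850 in library 5 to 1.11 in library 8, and this scaling moved the median log2 change of all tested genes in the labelled MTL-OX libraries, MeJA against mock, to -0.01, against 0.18 without it. A leaf identity check against marker genes was not made, because the tables used here pair no product name with the identifiers.

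PPD1 was the most abundant of the 7 transcripts and CO2 the least abundant. Over the 8 libraries PPD1 averaged 45.3 ± 13.4 FPKM, ELF3 31.4 ± 2.39 FPKM, PHYB 16.2 ± 2.25 FPKM and PHYC 13.1 ± 1.99 FPKM (SD, n = 8). TOC1 averaged 5.86 ± 2.36 FPKM, CO1 4.58 ± 2.11 FPKM and CO2 1.36 ± 0.490 FPKM (SD, n = 8). The order held in every library for PPD1 over ELF3, ELF3 over PHYB, PHYC over TOC1 and CO1 over CO2. PHYB exceeded PHYC in 7 of 8 libraries and TOC1 exceeded CO1 in 6 of 8, so these neighbours were not separated throughout.

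The genes differed in how far their levels moved across libraries. ELF3 was the steadiest, with its highest library 1.27 times its lowest, followed by PHYB at 1.47 times and PHYC at 1.70 times. PPD1 spanned 2.24 times, CO2 2.77 times and TOC1 3.36 times. CO1 had the widest span, 5.43 times between its lowest and highest library, although it was not the least abundant gene. The plot of levels by library shows that the lowest values of TOC1 and CO1 both lay in the group labelled MTL-OX with mock.

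**Figure D1:**
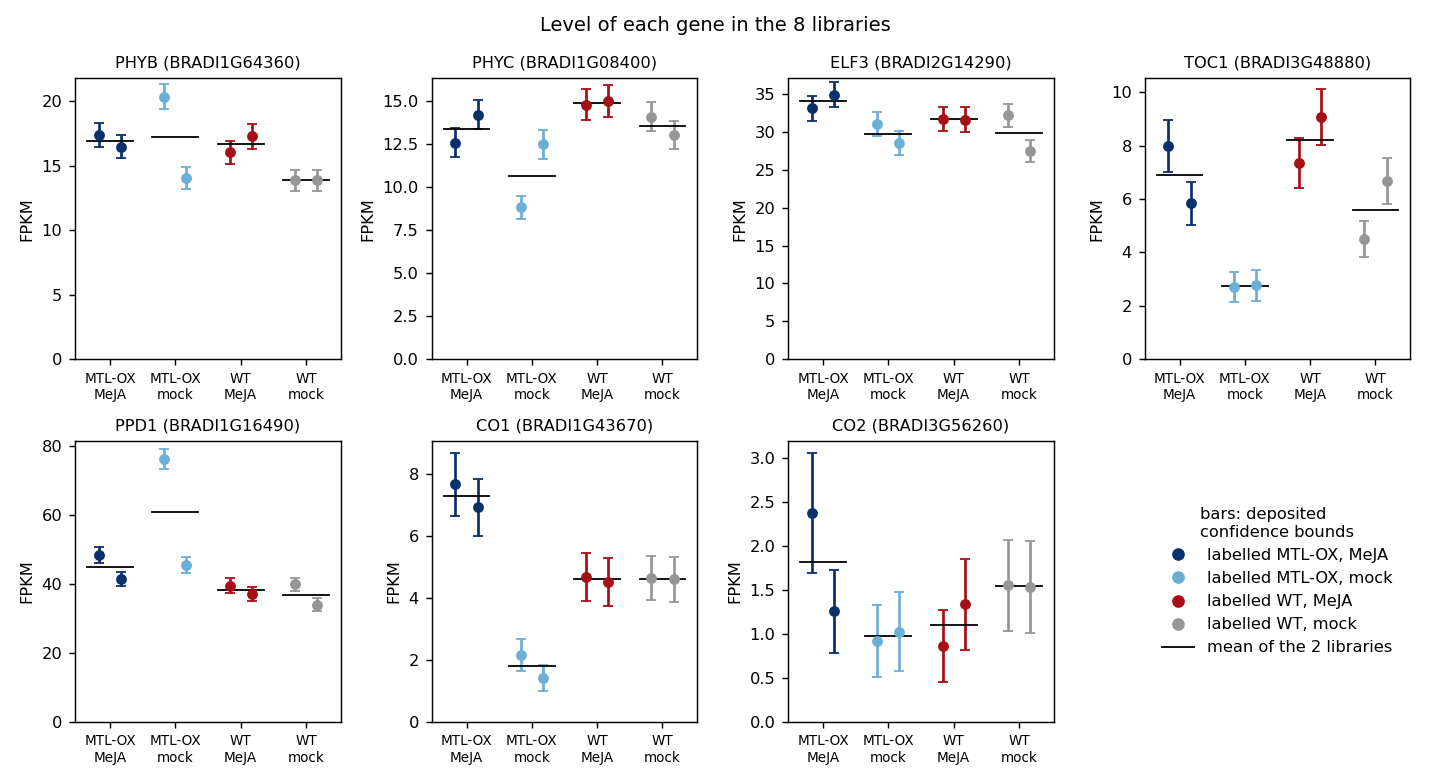
FPKM of each of the 7 genes (vertical axis, from 0) in the 8 libraries, by labelled group, with 1 point per library, the deposited confidence bounds as bars and the mean of the 2 libraries as a line. CO1 sits at 1.41 and 2.16 FPKM in the labelled MTL-OX mock libraries, below the 4 labelled WT libraries. It sits at 6.94 and 7.68 FPKM after MeJA, above them, a difference that was not tested under MeJA alone.

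The light receptors varied little outside library 5. PHYB (BRADI1G64360, chromosome 1, 63549129 to 63557357) had 17.4 and 16.5 FPKM in the labelled MTL-OX libraries with MeJA, against 20.4 and 14.05 FPKM with mock. It had 16.02 and 17.26 FPKM in the labelled WT libraries with MeJA, against 13.86 and 13.85 FPKM with mock. Only library 5, with 20.4 FPKM, lay clearly apart from its own replicate, whose deposited bounds did not reach it.

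PHYC (BRADI1G08400, chromosome 1, 5930698 to 5934968), whose protein pairs with PHYB in Arabidopsis, was lowest in the same library. It had 12.6 and 14.2 FPKM in the labelled MTL-OX libraries with MeJA, against 8.81 and 12.5 FPKM with mock. The labelled WT libraries were close together, with 14.80 and 14.99 FPKM after MeJA and 14.10 and 13.01 FPKM after mock. Neither phytochrome gene passed the threshold in any comparison. Between MeJA and mock in the labelled MTL-OX libraries, the log2 change of PHYB was -0.00 (95% interval -0.43 to 0.43). That of PHYC was 0.32 (95% interval -0.10 to 0.74), or 0.11 after median-ratio scaling. Between labelled MTL-OX and WT with mock, PHYC differed by -0.34 (95% interval -0.76 to 0.08), or -0.13 after this scaling.

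Because PHYB was high and PHYC low in library 5, the ratio of the 2 receptors stood out there. PHYB over PHYC was 1.38 and 1.16 in the labelled MTL-OX libraries with MeJA, against 2.31 and 1.12 with mock. In the labelled WT libraries the ratio was 1.08 and 1.15 with MeJA, against 0.983 and 1.06 with mock. A ratio within a library does not depend on how libraries are scaled to each other, and apart from library 5 it stayed between 0.983 and 1.38.

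ELF3 (BRADI2G14290, chromosome 2, 12876247 to 12880010) was nearly level across the study. Its values were 33.2 and 34.9 FPKM in the labelled MTL-OX libraries with MeJA, against 31.1 and 28.5 FPKM with mock, and 31.8 and 31.7 FPKM in the labelled WT libraries with MeJA, against 32.2 and 27.5 FPKM with mock. The log2 change with MeJA was 0.19 (95% interval -0.14 to 0.51) in the labelled MTL-OX libraries, where median-ratio scaling turned it to -0.04, and 0.09 (95% interval -0.24 to 0.41) in the labelled WT libraries. These intervals exclude a 2-fold change in either direction.

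TOC1 (BRADI3G48880, chromosome 3, 50312544 to 50315040), the evening pseudo-response regulator of the central oscillator, was higher with MeJA in both genotypes, but not past the threshold. It had 7.98 and 5.84 FPKM in the labelled MTL-OX libraries with MeJA, against 2.70 and 2.76 FPKM with mock, 2.53 times as much on average. It had 7.35 and 9.07 FPKM in the labelled WT libraries with MeJA, against 4.50 and 6.68 FPKM with mock, 1.47 times as much on average. Within each genotype the MeJA libraries lay above the mock libraries. Values separated, in either direction, for 46.9% of tested genes in labelled MTL-OX and 40.0% in labelled WT. In labelled WT the deposited bounds of library 2 with mock (5.83 to 7.53 FPKM) overlapped those of library 3 with MeJA (6.41 to 8.29 FPKM). In labelled MTL-OX the bounds did not overlap between treatments. Over both genotypes library 8 with MeJA (5.84 FPKM) lay below library 2 with mock (6.68 FPKM).

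The log2 change of TOC1 with MeJA over both genotypes was 0.78 ± 0.18 (SE), with an unadjusted p of 0.00209 and an adjusted p of 0.114 by limma with Benjamini-Hochberg adjustment over all tested genes. It was 1.07 ± 0.22 (SE) in the labelled MTL-OX libraries (adjusted p = 0.115, limma) and 0.50 ± 0.22 (SE) in the labelled WT libraries (adjusted p = 0.841, limma). The 95% interval in the labelled WT libraries was -0.02 to 1.01. The difference between the labelled MTL-OX and WT responses was 0.58, with a 95% interval of -0.15 to 1.30. After median-ratio scaling the changes were 0.68 over both genotypes, 0.89 in labelled MTL-OX and 0.46 in labelled WT, and none passed the threshold. Leaving out each library in turn gave a change over both genotypes between 0.65 and 0.94, and none of these passed the threshold either. The value in the labelled WT libraries was less steady, at 0.26 without library 1 and 0.74 without library 2. The difference between the responses was 0.33 without library 2, 0.38 without library 7 and 0.82 without library 1.

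Among mock-treated plants TOC1 had its lowest values, 2.70 and 2.76 FPKM, in the libraries labelled MTL-OX, against 4.50 and 6.68 FPKM in those labelled WT. The log2 difference was -0.80 ± 0.22 (SE), with an adjusted p of 0.163 (limma), and it would be 0.80 with the genotypes of the table names. This comparison shares the labelled MTL-OX mock libraries with the MeJA comparison in that genotype, so the 2 differences are not separate evidence.

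PPD1 (BRADI1G16490, chromosome 1, 13349458 to 13352695), the long-day heading regulator, stood apart mainly in 1 library. It had 48.6 and 41.5 FPKM in the labelled MTL-OX libraries with MeJA, against 76.4 and 45.5 FPKM with mock. It had 39.55 and 37.01 FPKM in the labelled WT libraries with MeJA, against 39.90 and 34.03 FPKM with mock. All 4 labelled MTL-OX libraries lay above all 4 labelled WT libraries, but after median-ratio scaling the groups overlapped.

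The log2 difference of PPD1 between labelled MTL-OX and WT over both treatments was 0.44 ± 0.18 (SE), with an unadjusted p of 0.0401 and an adjusted p of 0.150 (limma). Without library 5 it was 0.25, with an adjusted p of 0.243 (limma). In mock-treated plants alone it was 0.66 ± 0.25 (SE), with an adjusted p of 0.208 (limma). The mock value also rested on library 5, which had 76.4 FPKM with deposited bounds of 73.5 to 79.2. Without library 6, leaving library 5 as the only labelled MTL-OX mock library, the difference was 1.03 and passed the threshold (adjusted p = 0.0383, limma), while without library 5 it was 0.30 (adjusted p = 0.517, limma). All of these differences change sign with the genotypes of the table names.

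PPD1 and TOC1 encode proteins of the same family, and their ratio separated 1 group from the rest. PPD1 over TOC1 was 6.08 and 7.10 in the labelled MTL-OX libraries with MeJA, against 28.3 and 16.5 with mock, and 5.38 and 4.08 in the labelled WT libraries with MeJA, against 8.87 and 5.09 with mock. In the 6 libraries outside the labelled MTL-OX mock group the ratio was at most 8.87. This ratio combines the PPD1 and TOC1 values given above and is not separate evidence. The share of other gene pairs whose ratio sets 1 group apart was not counted.

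**Figure D2:**
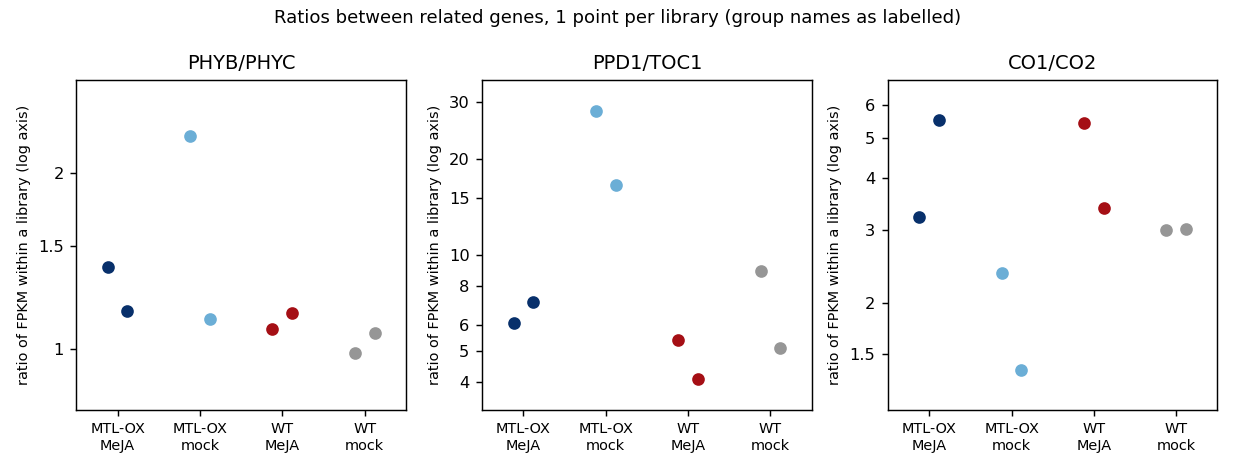
Ratio of FPKM between gene pairs within a library (vertical log axis), 1 point per library, by labelled group. The PPD1/TOC1 ratio is 16.5 and 28.3 in the labelled MTL-OX mock libraries and 4.08 to 8.87 elsewhere, and the CO1/CO2 ratio is lowest in the same group, at 1.38 and 2.36.

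CO1 (BRADI1G43670, chromosome 1, 41483191 to 41486564), a homolog of the photoperiod gene CONSTANS, was the 1 gene of the 7 that passed the threshold, and it rose with MeJA in the libraries labelled MTL-OX. It had 7.68 and 6.94 FPKM with MeJA, against 2.16 and 1.41 FPKM with mock, 4.09 times as much on average. The deposited bounds of the MeJA libraries started at 6.67 and 6.02 FPKM, above the upper bounds of the mock libraries at 2.68 and 1.84 FPKM. These values came from 231.1 and 227.4 fragments with MeJA, against 69.6 and 43.4 fragments with mock.

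In the labelled WT libraries CO1 was level, at 4.69 and 4.52 FPKM with MeJA, against 4.65 and 4.61 FPKM with mock. The bounds of these 4 libraries overlapped one another, from 3.75 to 5.46 FPKM. CO1 in the labelled MTL-OX libraries thus lay below the labelled WT values with mock and above them with MeJA. The genotypes were not tested against each other under MeJA alone. The share of tested genes that cross in this way was not counted.

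On the log2(FPKM + 1) scale, which understates changes of low genes, CO1 changed with MeJA by 1.59 ± 0.16 (SE) in the labelled MTL-OX libraries, with an adjusted p of 0.0389 (limma, Benjamini-Hochberg). A change of this size or larger in either direction was seen in 1.19% of tested genes. In the labelled WT libraries the change was -0.01 ± 0.16 (SE), with a 95% interval of -0.39 to 0.38. The difference between the responses was 1.59 ± 0.23 (SE), with an unadjusted p of 0.000241 and an adjusted p of 0.449 (limma), so the test of the difference did not pass over all genes. With the table names the rise belongs to wild-type plants.

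The CO1 call was close to the threshold. It was kept with limma-voom on the fragments (log2 change 2.03, adjusted p = 0.0435). Any library left out leaves 1 in its group, which then has no spread of its own. The call held without library 5 or library 6, at log2 changes of 1.78 and 1.39. It was lost without library 1, 2, 3, 4, 7 or 8, with log2 changes of 1.52 to 1.65 and adjusted p of 0.0917, 0.0911, 0.138, 0.138, 0.0894 and 0.225 (limma) in that order. It was also lost after median-ratio scaling, where the change was 1.42 (adjusted p = 0.0896, limma) while the median of all tested genes was at -0.01. The same held with a pseudocount of 0.1 (adjusted p = 0.0561), without the filter (adjusted p = 0.0842) and with only the 4 libraries compared (adjusted p = 0.358). Across all settings that gave CO1 a value and kept the labels, the change was between 1.39 and 2.03.

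Among mock-treated plants CO1 was lower in both libraries labelled MTL-OX, with 2.16 and 1.41 FPKM, against 4.65 and 4.61 FPKM in those labelled WT. The log2 difference was -1.03 ± 0.16 (SE), with an unadjusted p of 0.000423 and an adjusted p of 0.113 (limma), which did not pass. Without library 6, leaving library 5 as the only labelled MTL-OX mock library, the log2 difference was -0.83, under the 2-fold limit. The same mock libraries serve in the MeJA comparison above.

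**Figure D3:**
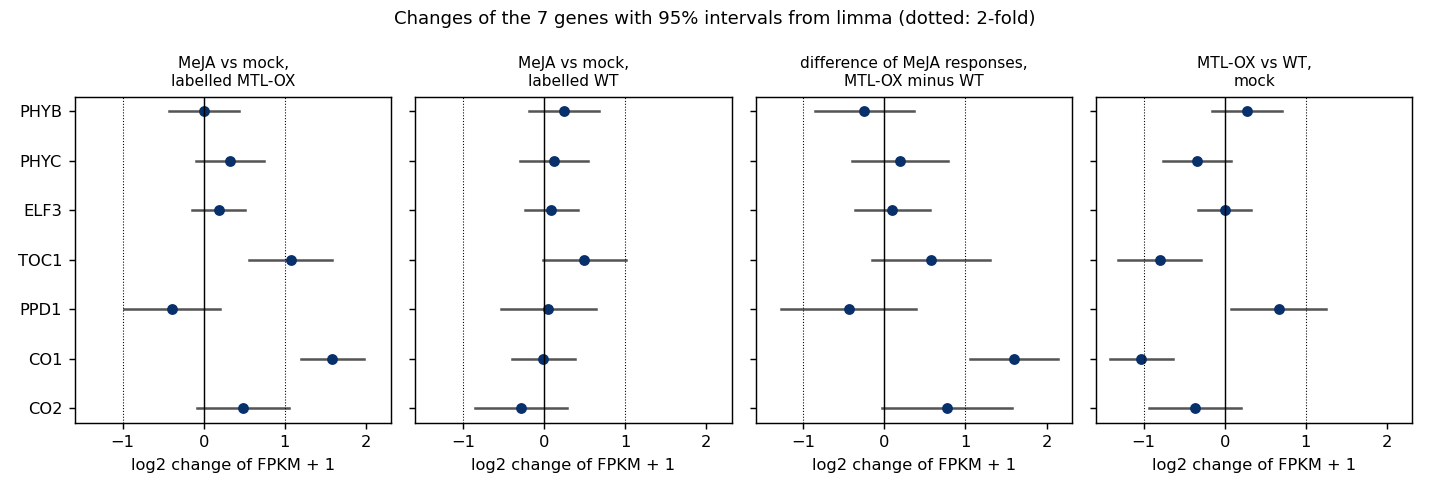
Log2 change of FPKM + 1 (horizontal axis) of the 7 genes in 4 comparisons, with the genotypes as labelled. Points are limma estimates, lines their 95% intervals and dotted lines a 2-fold change. CO1 is at 1.59 in the labelled MTL-OX libraries and at -0.01 in the labelled WT libraries for MeJA against mock.

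CO2 (BRADI3G56260, chromosome 3, 56219290 to 56221877), the other CONSTANS homolog, rested on the fewest fragments. It had 2.38 and 1.26 FPKM in the labelled MTL-OX libraries with MeJA, against 0.915 and 1.03 FPKM with mock, and 0.861 and 1.34 FPKM in the labelled WT libraries with MeJA, against 1.55 and 1.53 FPKM with mock. Behind these values were 18.0 to 48.7 fragments per library, and the deposited bounds of the replicates overlapped in all 4 groups. MeJA and mock libraries did not overlap in either genotype, with the MeJA values higher in the labelled MTL-OX libraries and lower in the labelled WT libraries. Such separation was seen in 46.9% of tested genes in labelled MTL-OX and 40.0% in labelled WT. The deposited bounds of MeJA and mock libraries overlapped, except those of library 7. These started at 1.70 FPKM, above the upper bounds of both labelled MTL-OX mock libraries.

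The log2 change of CO2 with MeJA was 0.49 ± 0.24 (SE) in the labelled MTL-OX libraries (adjusted p = 0.317, limma) and -0.29 ± 0.24 (SE) in the labelled WT libraries (adjusted p = 1, limma). The difference between the responses was 0.77, with a 95% interval of -0.03 to 1.57. Single libraries moved these values, since the change in the labelled MTL-OX libraries was 0.20 without library 7 and 0.78 without library 8. In the labelled WT libraries it was -0.12 without library 3 and -0.45 without library 4, and the difference was 0.48 without library 7. CO1 over CO2 was 3.23 and 5.53 in the labelled MTL-OX libraries with MeJA, against 2.36 and 1.38 with mock, and 5.44 and 3.38 in the labelled WT libraries with MeJA, against 2.99 and 3.01 with mock. CO1 was thus the more abundant homolog everywhere. The ratio was higher with MeJA in each genotype without overlap, at 2 libraries against 2. In the labelled WT libraries CO1 was level, and the ratio moved with CO2, at 18.0 and 26.9 fragments with MeJA. How often ratios of other gene pairs separate in this way was not counted.

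The counts over the 7 genes stand here beside the share of all tested genes. The threshold was an adjusted p of at most 0.05 with a 2-fold change. For MeJA against mock in the labelled MTL-OX libraries, 1 of the 7 passed it, against 0.0737% of tested genes, and this 1 gene was CO1. At an unadjusted p under 0.05, 2 of the 7 (CO1 and TOC1) passed, against 18.9% of tested genes. The values did not overlap for 5 of the 7, all higher with MeJA, against 46.9% of tested genes. After median-ratio scaling PHYC and ELF3 overlapped, and only CO1, TOC1 and CO2 stayed apart. The median log2 change was 0.32 for the 7 genes and 0.18 for all tested genes, or 0.11 and -0.01 after median-ratio scaling.

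For MeJA against mock in the labelled WT libraries, limma called 0 of the 7 genes, against 0.0335% of tested genes, and 0 had an unadjusted p under 0.05, against 5.99%. With limma-voom the count was also 0. PHYB, PHYC and TOC1 were higher and CO2 lower without overlap, 4 of the 7 genes against 40.0% of tested genes. The median log2 change was 0.09 for the 7 genes and 0.03 for all tested genes.

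Over both genotypes, limma and limma-voom called 0 of the 7 genes for MeJA against mock, where limma called 0.188% of tested genes. CO1 and TOC1 had an unadjusted p under 0.05, against 16.5% of tested genes, and the 4 MeJA libraries did not separate from the 4 mock libraries for any of the 7, against 8.02% of tested genes. The log2 change of CO1 was 0.79 ± 0.30 (SE) in this comparison (adjusted p = 0.252, limma), which averages its values in the 2 genotypes. The log2 changes of the remaining 5 genes were between -0.17 and 0.22.

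**Figure D4:**
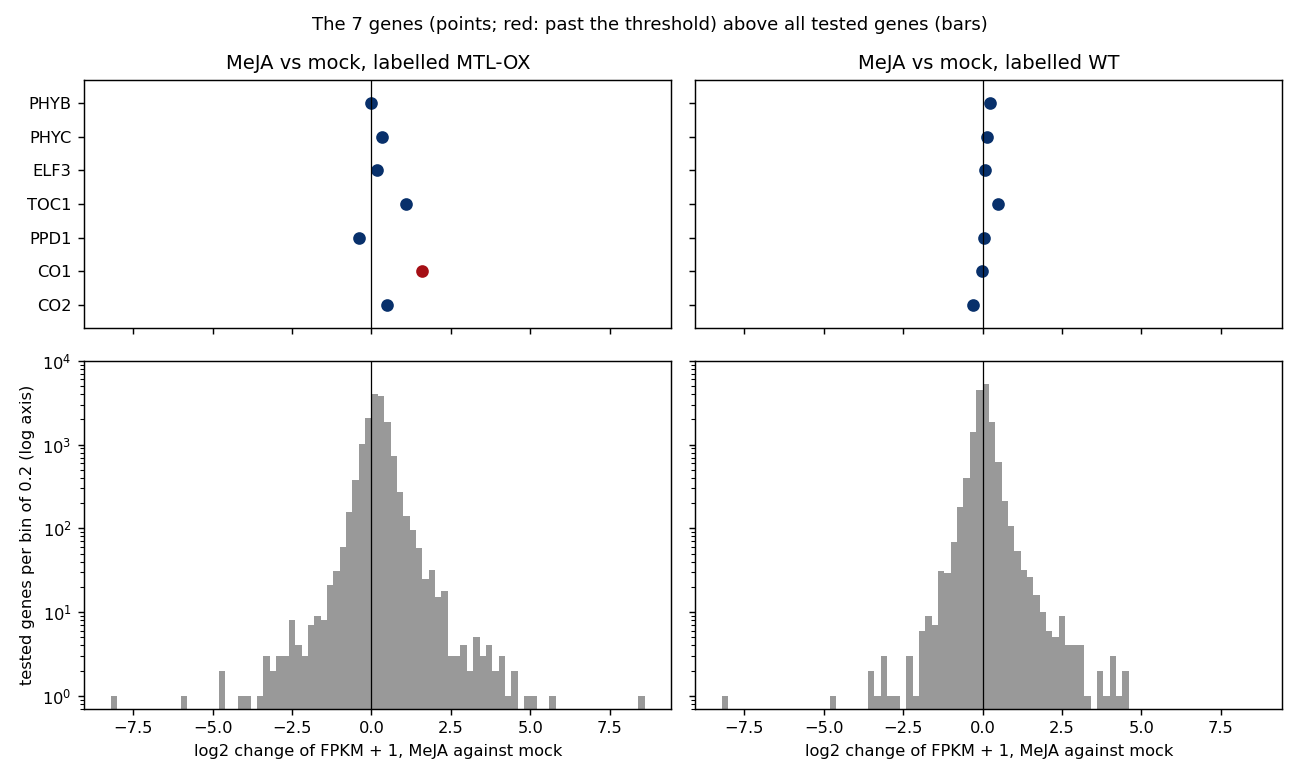
Log2 change of FPKM + 1 with MeJA against mock (horizontal axis) for the 7 genes (points, upper panels) and for all 14922 tested genes (bars, number of genes on a log axis, lower panels), in the labelled MTL-OX and labelled WT libraries. CO1, in red, and TOC1 lie to the right of most genes in the labelled MTL-OX libraries, at 1.59 and 1.07, and the 7 genes lie between -0.29 and 0.50 in the labelled WT libraries.

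Between labelled MTL-OX and WT in mock-treated plants, limma and limma-voom called 0 of the 7 genes, where limma called 0.0804% of tested genes. CO1, TOC1 and PPD1 had an unadjusted p under 0.05, against 21.1% of tested genes. PHYB and PPD1 were higher and PHYC, TOC1, CO1 and CO2 lower without overlap, 6 of the 7 genes against 52.4% of tested genes. Most tested genes thus separated without overlap, and the median log2 difference of all tested genes was -0.19, against -0.34 for the 7 genes, or -0.00 and -0.13 after median-ratio scaling, under which PHYC overlapped.

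Over both treatments, limma and limma-voom called 0 of the 7 genes between labelled MTL-OX and WT, where limma called 1.11% of tested genes. TOC1, at -0.51 ± 0.18 (SE) with an adjusted p of 0.102 (limma), and PPD1 had an unadjusted p under 0.05, against 29.1% of tested genes. PPD1 alone separated, against 16.9% of tested genes. For the difference between the MeJA responses of the genotypes, limma and limma-voom also called 0 of the 7 genes, where limma called 0.0134% of tested genes. There CO1 alone had an unadjusted p under 0.05, against 6.34% of tested genes.

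Over the 8 libraries the tested gene most like CO1 was BRADI4G01230, with a Pearson's r of 0.983 on log2(FPKM + 1), and the one most like TOC1 was BRADI1G66980, with an r of 0.977. The best r of the 7 genes ranged from 0.919 for CO2 to 0.986 for PHYC and ELF3, against a median best r of 0.981 over all tested genes. The best partner was closer for PHYC, ELF3 and CO1 than for the median tested gene, and less close for TOC1, PPD1, PHYB and CO2. The libraries share treatment, genotype and depth, and the correlations are given as a description.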

How the data were processed

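mRNA-seq of leaves was available for 8 samples, 2 in each of 4 groups. The authors made TruSeq libraries, sequenced pairs and used FastQC, TopHat2 and Cufflinks, and deposited FPKM with confidence bounds, 1 table per sample without pooling. The genome build is not given in the sources used here. Groups followed the labels, although all 8 table names carry the opposite genotype. Rows with the same identifier were summed, and starts were written 1-based. Fragments behind a value were derived from it: 2 FPKM over the gap to the upper bound, squared. The bounds cover counting error within a library only.

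The 14922 genes with a mean of at least 1 FPKM entered limma 3.58.1 (R 4.3.3, functions lmFit and eBayes with trend) as log2(FPKM + 1) values, with Benjamini-Hochberg adjustment over all of them. Comparisons over both genotypes or treatments used an additive fit, and the others 1 mean per group, all 8 libraries sharing the spread. The step was also run on simulated data, with independent noise for each value and no shift of whole libraries. The genes changed there lay above the mean level of CO1 and CO2, so that run does not cover these genes. Alternatives were a pseudocount of 0.1, no filter, a mean of at least 5 FPKM, median-ratio scaling, limma-voom on the fragments, the genotypes of the table names, only the libraries of the comparison, an adjusted p of at most 0.001 and leaving out each library. Limma-voom after median-ratio scaling was chosen after seeing the data.

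The text names all 7 genes. These and the lists were chosen with earlier results of these data known. Lists of other clock and light genes and of leaf markers, and sequences, were not used here, since the gene table at hand pairs 0 of these identifiers with a product.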

Additional observations from a re-analysis of the deposited data

Results flagged for a closer look

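For CO2 the values moved opposite ways with MeJA in the genotypes, but neither change passed the threshold. CO2 had 2.38 and 1.26 FPKM in the labelled MTL-OX libraries with MeJA, against 0.915 and 1.03 FPKM with mock, and 0.861 and 1.34 FPKM in the labelled WT libraries with MeJA, against 1.55 and 1.53 FPKM with mock. Both MeJA libraries were above both mock libraries in the first genotype and below them in the other. Values separated in either direction for 46.9% of tested genes in labelled MTL-OX and 40.0% in labelled WT. The share of genes that separated in opposite directions was not counted. The test of the difference gave a log2 value of 0.77 ± 0.34 (SE), with an unadjusted p of 0.0563 and an adjusted p of 0.771 (limma, Benjamini-Hochberg), and it did not pass. The value without each library in turn was between 0.48, without library 7, and 1.06, without library 8. It is -0.77 with the genotypes of the table names.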

How the results depend on the processing

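No paired analysis was possible because the groups share no replicate number. The count of the 7 genes called was kept in the comparisons of MeJA over both genotypes, of genotype over both treatments and of the MeJA responses (0 under every setting run). In the labelled MTL-OX libraries, MeJA against mock, it was 1, against 0 with a pseudocount of 0.1, without the filter, with a mean of at least 5 FPKM (which removes CO1 and CO2), with median-ratio scaling with or without limma-voom, with only the libraries of the comparison, at an adjusted p of at most 0.001 and with the table names, which gave 1 in labelled WT instead. Leaving out libraries gave 0 to 1 there, and 0 to 1 for the genotypes in mock-treated plants, where PPD1 passed without library 6. Over all tested genes, leaving out libraries gave 11 to 704 calls for the genotypes over both treatments (165 with all libraries) and 5 to 676 in mock-treated plants (12), the upper counts without library 6, 2 to 31 for MeJA over both genotypes (28), 1 to 43 in labelled MTL-OX (11, the upper count without library 7), 1 to 13 in labelled WT (5) and 0 to 10 for the difference of responses (2). The other settings gave 7 to 541, 2 to 12, 0 to 50, 0 to 17, 0 to 19 and 0 to 8 calls in the same order. The cause of these shifts was not tested.

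With the table names, log2 differences between genotypes over both treatments became 0.24 for PHYC, -0.44 for PPD1, 0.23 for CO1, -0.15 for PHYB, -0.050 for ELF3, 0.51 for TOC1 and -0.018 for CO2. In mock-treated plants they became 0.34 for PHYC, -0.66 for PPD1, 1.03 for CO1, -0.27 for PHYB, 0.00024 for ELF3, 0.80 for TOC1 and 0.37 for CO2. The differences of responses became -0.19 for PHYC, 0.44 for PPD1, -1.59 for CO1, 0.25 for PHYB, -0.10 for ELF3, -0.58 for TOC1 and -0.77 for CO2. The MeJA responses exchanged places, and those with unlike signs became 0.053 for PPD1, -0.0069 for CO1, 0.25 for PHYB and -0.29 for CO2 in MTL-OX, and -0.39 for PPD1, 1.59 for CO1, -0.00099 for PHYB and 0.49 for CO2 in WT.

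Small changes crossed 0 under other settings. Median-ratio scaling, without and with limma-voom, gave -0.0030 and -0.018 for PHYB with MeJA over both genotypes, and for ELF3 -0.038 and -0.021 with MeJA in labelled MTL-OX, 0.22 and 0.20 between genotypes in mock-treated plants, and -0.093 and -0.056 for the difference of responses. A pseudocount of 0.1 gave 0.00017 for PHYB with MeJA in labelled MTL-OX, and limma-voom gave 0.0019 for CO1 in labelled WT. Leaving out libraries gave -0.11 to 0.11 for ELF3 between genotypes in mock-treated plants, -0.011 to 0.21 for the difference of its responses and -0.022 to 0.20 with MeJA in labelled WT. It gave -0.059 to 0.16 for PPD1 and -0.028 to 0.014 for CO1 with MeJA in labelled WT, -0.27 to 0.023 for PPD1 and -0.093 to 0.24 for CO2 with MeJA over both genotypes, and -0.25 to 0.25 for PHYB with MeJA in labelled MTL-OX. It gave -0.18 to 0.11 for CO2 and -0.41 to 0.0081 for CO1 between genotypes over both treatments, and -0.038 to 0.42 for PHYC and -0.50 to 0.0041 for PHYB in the difference of responses.

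The hour of harvest, on which clock genes depend, is not stated, and its part in the results was not tested.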
